A study of Mus musculus with 8 samples.

Results

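The genes described here carry glucose into the cell and break it down. They encode the glucose transporters, hexokinases, glycolytic enzymes, lactate dehydrogenases and lactate transporters, the pyruvate dehydrogenase complex with its kinases, and the enzymes of the pentose phosphate pathway. The set was chosen by known function as 35 gene symbols, and its members are the rows of the deposited table whose Ensembl identifiers carry these symbols in the GENCODE M21 annotation. All 35 symbols were found, in 36 of the 26589 rows, because Aldoa has 2 identifiers. A total of 34 rows passed the filter of at least 1 FPKM in at least 4 libraries and were tested, and Hk3 and Ldhb did not pass it. FPKM are reads per length of gene, scaled to the read total of the library. The values gave whole reads with the length of all annotated exons of a gene together, which can exceed that of its transcripts. Levels of different genes can therefore be compared only roughly. Values with ± are means and SD over the 4 libraries of a group.

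The study compared IL-10+ and IL-10- B cells, with 4 bulk RNA-seq libraries of each group. Both groups came from spleens of IL-10-eGFP Tiger mice, which report Il10 transcription by green fluorescence, and both were cultured with lipopolysaccharide (LPS, a bacterial activator of B cells) at 3 µg/ml for 48 h and then sorted by the reporter. A treatment tag of the labels reads untreated for all libraries, which goes against the protocols, and no unstimulated cells were analysed here. The labels give no age or sex, and they do not say whether a replicate number stands for a mouse, a pool or a culture, so p-values reflect only how far these libraries differ from each other, which may be technical. Since RNA was measured in bulk, fewer cells of a kind and less RNA per cell cannot be told apart.

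In glycolysis a cell imports glucose through GLUT proteins, traps it by phosphorylation with hexokinase and splits it to pyruvate, with phosphofructokinase as the main controlled step. Pyruvate is either reduced to lactate and exported, or enters mitochondria through pyruvate dehydrogenase, which the PDH kinases switch off. The pentose phosphate pathway branches off after hexokinase and supplies NADPH and ribose for biosynthesis. B cells activated by LPS are known to take up more glucose, and antibody-secreting cells use much of it to build glycans of antibodies.

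The libraries held 27380239 to 29968107 reads, as recovered from the FPKM steps. Il10 averaged 36.9 ± 5.32 FPKM in IL-10+ cells and 3.17 ± 1.48 FPKM in IL-10- cells (mean ± SD, n = 4 each). Immunoglobulin genes took 14.6% ± 1.62 of all FPKM in IL-10+ cells and 4.19% ± 0.439 in IL-10- cells (mean ± SD, n = 4 each), which left a smaller share for all other genes in IL-10+ cells. Of 10 plasmablast markers 9 were tested and all 9 were called higher in IL-10+ cells, where 10.6% of all genes tested were. Their summed levels were 1631 to 1697 FPKM in IL-10+ libraries and 367 to 549 FPKM in IL-10- libraries. Of 12 proliferation genes 3 (Mki67, Cdc20 and Cenpf) were higher, against 10.6% of all genes. With the replicate block described below 9 were higher, against 20.4% of all genes. The 12 genes summed to 847 to 1050 FPKM in IL-10+ libraries and 648 to 860 FPKM in IL-10- libraries. All 8 B cell markers were well above the filter, summing to 2296 to 3063 FPKM in IL-10+ libraries and 2599 to 3905 FPKM in IL-10- libraries. Of these 3 were lower in IL-10+ cells, against 9.18% of all genes. With the block 7 were lower and 1 was higher, against 33.3% and 20.4% of all genes. T cell markers summed to 2.47 to 4.57 FPKM in IL-10+ libraries and 4.82 to 6.23 FPKM in IL-10- libraries, red cell and platelet markers to 0.610 to 1.03 FPKM in IL-10+ libraries and 1.78 to 2.82 FPKM in IL-10- libraries, myeloid markers to at most 1.43 FPKM in IL-10+ libraries and 2.53 FPKM in IL-10- libraries, and NK markers to less than 1 FPKM in every library. The part that the plasmablast and proliferation genes have in the values below was not tested.

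The genes of glucose use were abundant in both kinds of cells and differed little between them. Together they summed to 2454 ± 172 FPKM in IL-10+ cells and 2493 ± 191 FPKM in IL-10- cells (mean ± SD, n = 4 each), with the libraries of both groups overlapping. As a share of all FPKM this was 0.681% ± 0.0597 in IL-10+ cells and 0.756% ± 0.0580 in IL-10- cells. The base of that share was larger in IL-10+ libraries, where all FPKM summed to 354338 to 370399, against 326609 to 335280 in IL-10- libraries. With immunoglobulin genes left out the share was 0.797% ± 0.0569 in IL-10+ cells and 0.789% ± 0.0613 in IL-10- cells. In the fit without the replicate number, limma called 1 of 34 tested members at an adjusted p under 0.05, the lower Pfkfb4, where 19.7% of the 11329 genes tested were called. At an unadjusted p under 0.05 there were 6 members, where 32.7% of all genes tested passed. The median log2 change was -0.079 over the members and -0.057 over all genes tested, and -0.045 against -0.028 after the FPKM were rescaled without immunoglobulin and mitochondrial genes. The ratio of group means lay within 1.5-fold for 31 of 34 members, against 85.8% of all genes tested, and the 3 beyond it were Aldoc at 0.606, Pfkfb4 at 0.656 and Pdk2 at 1.99.

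**Figure D1:**
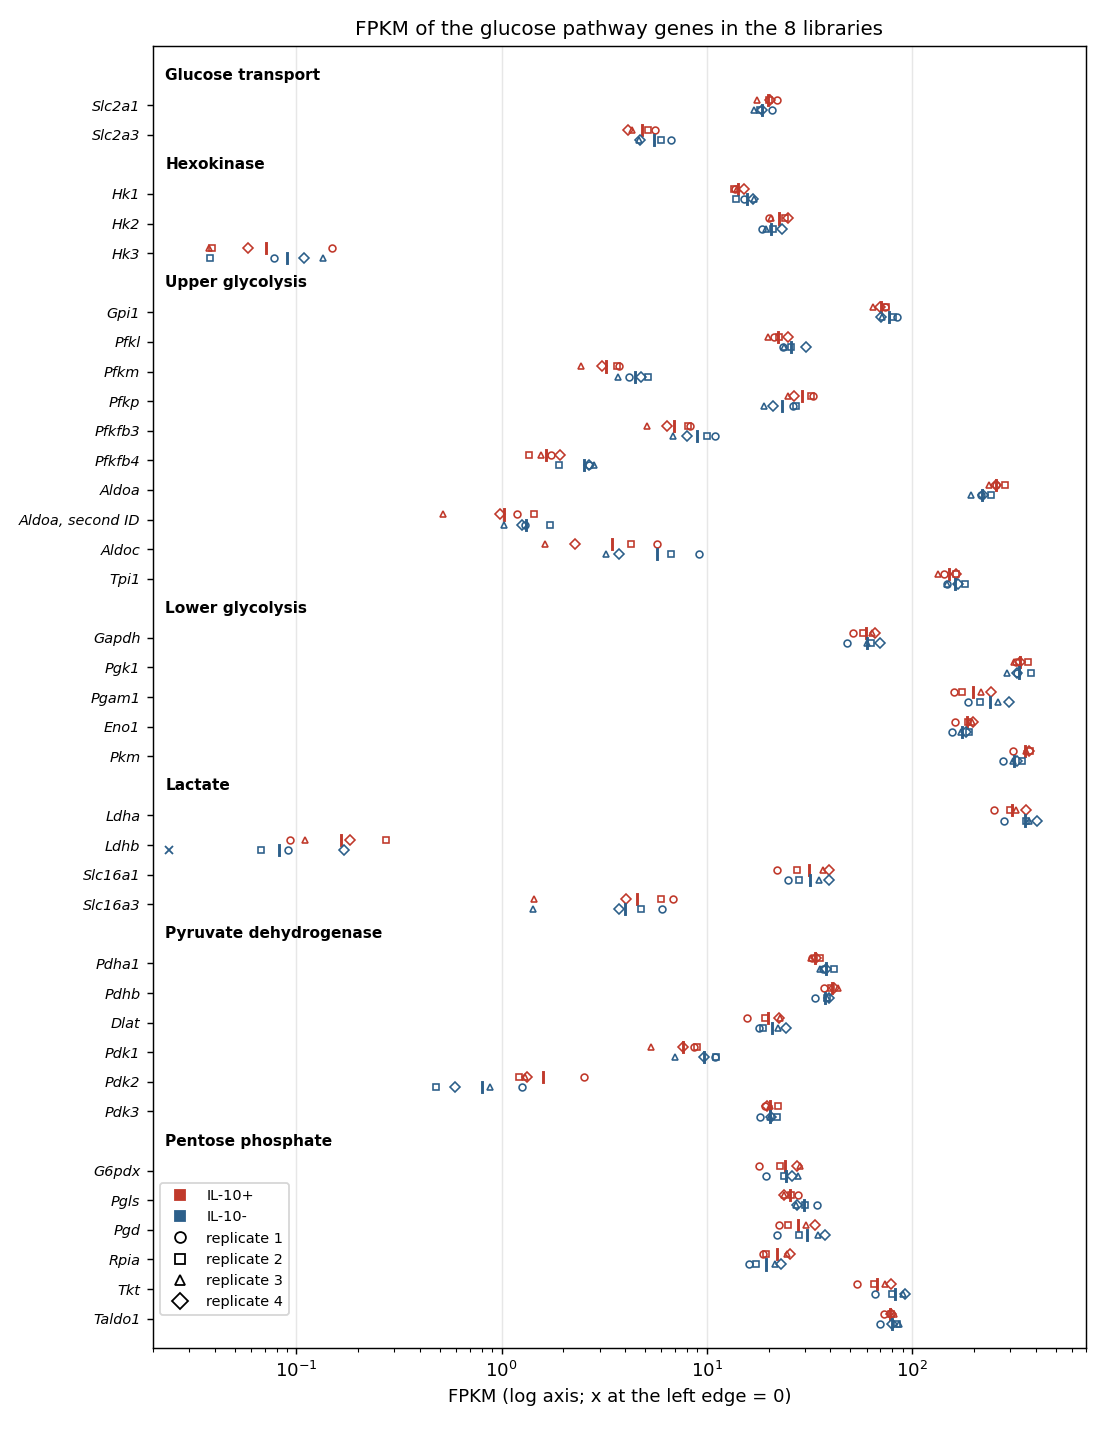
FPKM of each of the 36 rows in each library on a log axis, IL-10+ in red above IL-10- in blue, with marker shapes for the replicate numbers and a vertical tick at each group mean. The red and blue points lie close together for nearly every gene, while levels of different genes span from Pkm and Pgk1 at 277 FPKM or more to Hk3 and Ldhb at 0.273 FPKM or less.

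Libraries with the same replicate number varied together, so the comparison was also made with the number as a block. The correlation of their deviations from the group means across genes was 0.583 to 0.712. With the block limma called 22 of 34 members, 8 higher and 14 lower, where 53.7% of all genes tested were called, 20.4% higher and 33.3% lower. Rescaling without immunoglobulin and mitochondrial genes left 20 of these calls, without Hk1 and Gpi1, where 50.0% of all genes were called, 22.5% higher and 27.5% lower. Median-of-ratios scaling left the same number, against 50.5% of all genes, 22.4% higher and 28.1% lower. Of the 22 calls 16 held when each replicate number was left out in turn, for which no share of all genes is given here. The 6 that did not were Slc2a1, Slc2a3, Hk1, Hk2, Gpi1 and Pdhb. In the fits without a replicate number 21 to 24 members had an unadjusted p under 0.05, against 53.4% to 54.7% of all genes. Within replicates 1 and 2 alone limma called 0 members, where 9.76% of all genes were called, 6.94% higher and 2.82% lower. There 4 members had an unadjusted p under 0.05, against 25.7% of all genes. Within replicates 3 and 4 alone 5 were called (23.4% of all genes, 11.3% higher and 12.1% lower). These were a higher Pfkp with lower Pfkfb4, Aldoc, Pgls and Tkt. In what follows a fold divides the mean FPKM of IL-10+ libraries by that of IL-10- libraries, and log2 changes are of FPKM + 1, which understates changes of low genes.

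**Figure D2:**
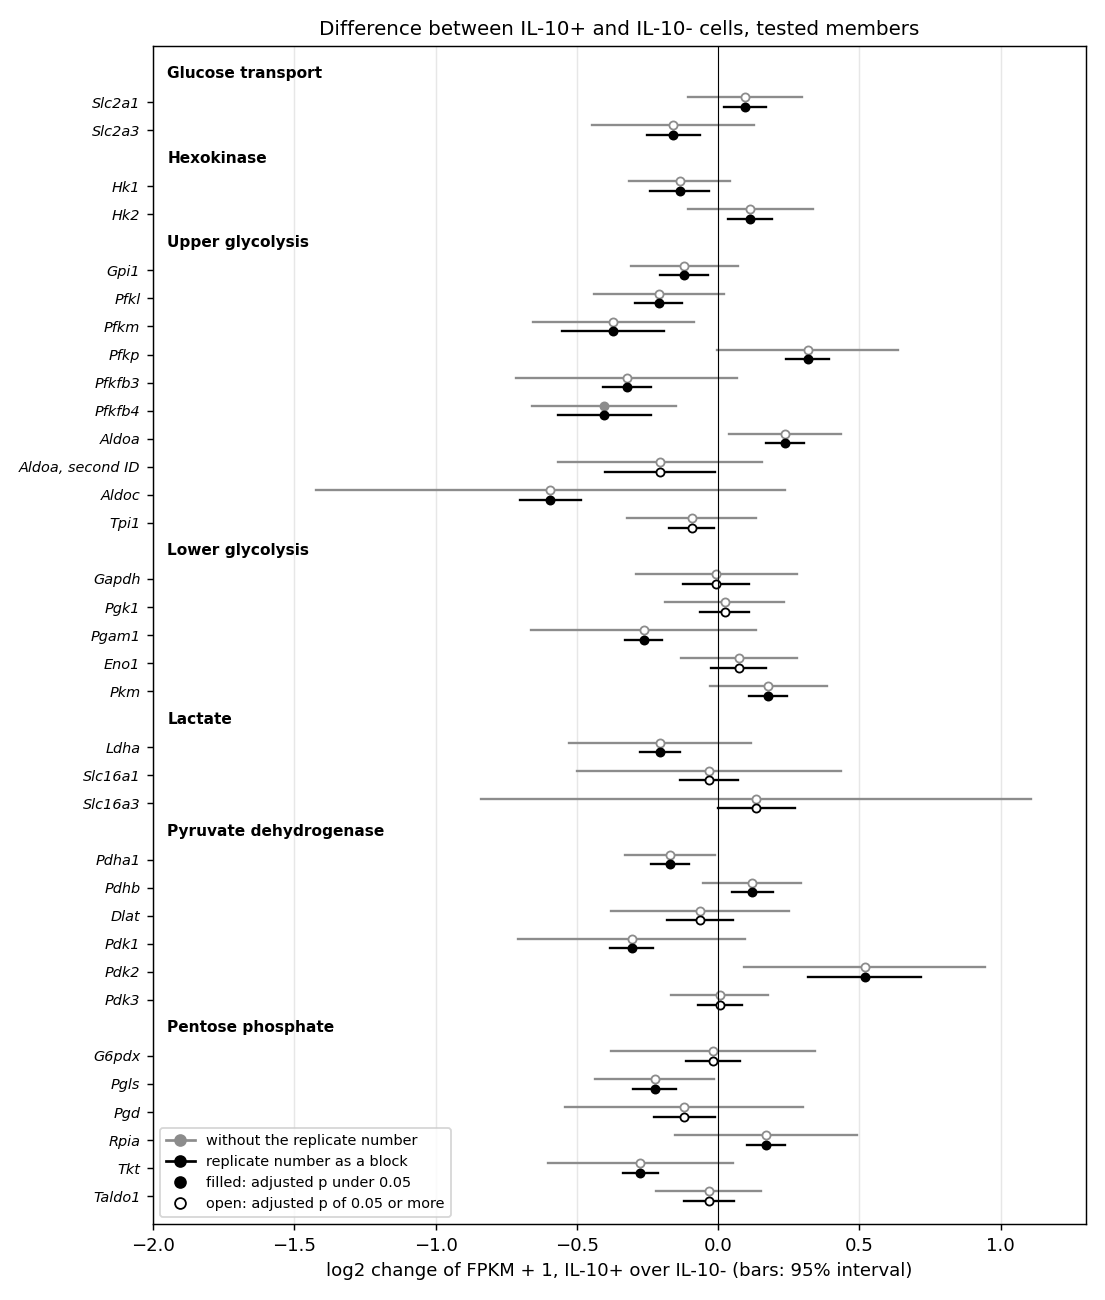
Log2 change of FPKM + 1 of the 34 tested members, IL-10+ over IL-10-, with 95% intervals, in grey without and in black with the replicate number as a block. Filled points passed an adjusted p of 0.05. Only Pfkfb4 is filled in grey, while 22 members are filled in black, 8 to the right of 0 and 14 to the left.

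RNA of the glucose transporters Slc2a1 and Slc2a3 was at a similar level in both groups, with Slc2a1 slightly higher and Slc2a3 slightly lower in IL-10+ cells. A larger difference was in Slc2a6, a GLUT-family gene that is no member and is described among the other genes of glucose metabolism. Slc2a1, which encodes GLUT1, the basal glucose transporter of lymphocytes, had 21.9, 20.03, 17.5 and 20.3 FPKM in IL-10+ libraries 1 to 4, against 20.8, 18.2, 16.9 and 18.5 FPKM in IL-10- libraries 1 to 4. It was 1.07-fold higher, with adjusted p 0.503 without and 0.0395 with the block. Slc2a3 encodes GLUT3, a transporter of high affinity, and had 5.62, 5.18, 4.32 and 4.14 FPKM in IL-10+ libraries, against 6.66, 5.97, 4.67 and 4.73 FPKM in IL-10- libraries. The fold was 0.874, with adjusted p 0.426 without and 0.0160 with the block. For both genes IL-10+ and IL-10- libraries overlapped, the direction was the same in 4 of 4 replicate numbers, and the blocked call was lost when single numbers were left out, with adjusted p up to 0.134 for Slc2a1 and 0.0629 for Slc2a3.

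The hexokinases showed the same kind of small opposite difference. Hk2, the inducible hexokinase, had 20.2, 23.96, 20.5 and 24.8 FPKM in IL-10+ libraries, against 18.6, 20.9, 19.5 and 23.3 FPKM in IL-10- libraries. It was 1.09-fold higher, with adjusted p 0.463 without and 0.0270 with the block. Hk1, the housekeeping form, had 13.7, 13.6, 14.1 and 15.2 FPKM in IL-10+ libraries, against 15.1, 13.9, 16.9 and 16.8 FPKM in IL-10- libraries. Its fold was 0.902, with adjusted p 0.264 without and 0.0379 with the block, and after rescaling without immunoglobulin and mitochondrial genes the blocked p was 0.0991. The groups overlapped for both genes. Hk3, a hexokinase found mainly in myeloid cells, stayed at or under 0.149 FPKM in all 8 libraries, with 4 to 15 reads. The summed hexokinase level was 36.6 ± 2.82 FPKM in IL-10+ cells and 36.3 ± 2.81 FPKM in IL-10- cells (mean ± SD, n = 4 each).

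The phosphofructokinases, which make fructose 1,6-bisphosphate and set the pace of glycolysis, differed in opposite directions by subunit. The platelet-type subunit gene Pfkp (chromosome 13, 6579768 to 6648777, minus strand, GRCm38) had 33.05, 32.3, 24.7 and 26.5 FPKM in IL-10+ libraries 1 to 4, against 26.3, 27.1, 18.9 and 20.96 FPKM in IL-10- libraries 1 to 4. Within each replicate number the IL-10+ library was higher, by 1.19 to 1.31-fold, and replicates 1 and 2 were high in both groups, which overlapped. Pfkp was 1.25-fold higher (log2 change 0.32, SE 0.0305 with the block), with adjusted p 0.158 without and 0.000608 with the block. The liver-type subunit gene Pfkl (chromosome 10, 77986947 to 78010083, minus strand) had 21.3, 22.5, 19.8 and 24.9 FPKM in IL-10+ libraries, against 23.5, 25.6, 23.7 and 30.2 FPKM in IL-10- libraries. It was lower in IL-10+ cells in 4 of 4 numbers, at 0.858-fold, with adjusted p 0.189 without and 0.00382 with the block. The muscle-type subunit gene Pfkm was the least abundant, with 3.73, 3.63, 2.45 and 3.08 FPKM in IL-10+ libraries, against 4.15, 5.15, 3.70 and 4.80 FPKM in IL-10- libraries. Its fold was 0.724, with adjusted p 0.0719 without and 0.00777 with the block. The groups overlapped in that IL-10+ library 1 was just above IL-10- library 3.

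Pfkfb3 and Pfkfb4 encode bifunctional enzymes that make and remove fructose 2,6-bisphosphate, the activator of phosphofructokinase, and both were lower in IL-10+ cells with the block. Pfkfb4 (chromosome 9, 108991778 to 109032228, plus strand) had 1.73, 1.36, 1.56 and 1.93 FPKM in IL-10+ libraries 1 to 4, against 2.67, 1.89, 2.81 and 2.66 FPKM in IL-10- libraries 1 to 4. The IL-10- library 2 was low and overlapped the highest IL-10+ library, while the other IL-10- libraries were above all IL-10+ libraries. Pfkfb4 was the 1 member called without the block (0.656-fold, log2 change -0.40, SE 0.111, adjusted p 0.0354), and the adjusted p was 0.00423 with it. The call without the block survived leaving out 1 library in 2 of 8 cases, IL-10+ replicate 4 or IL-10- replicate 2, and the adjusted p reached 0.0964 in the others. Pfkfb3, the form that mostly makes the activator, had 8.24, 8.05, 5.14 and 6.36 FPKM in IL-10+ libraries, against 10.98, 10.001, 6.85 and 7.96 FPKM in IL-10- libraries. It was 0.776-fold in IL-10+ cells relative to IL-10- cells and lower in 4 of 4 numbers, with adjusted p 0.231 without and 0.000842 with the block. Replicates 1 and 2 were above 3 and 4 in both groups, so the groups overlapped. Pfkfb1 and Pfkfb2, genes of the same family that are no members, were not called. Pfkfb1 was 0.883-fold in IL-10+ cells relative to IL-10- cells (adjusted p 0.452 without and 0.242 with the block). Pfkfb2 averaged 1.43 FPKM in IL-10+ cells and 1.24 FPKM in IL-10- cells (adjusted p 0.505 without and 0.165 with the block) and was the higher one in IL-10+ cells in 4 of 4 numbers.

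The promoters of these genes were read to show what the members that moved apart carry in front of them. The windows, from RefSeq (GRCm38.p6), run from 250 bases before to 50 bases after the annotated start and are printed 5′ to 3′ on the gene's strand. Capitals mark GCGTG, a core to which hypoxia-inducible factor can bind, searched on both strands. They are given for Pfkp (chr13:6648722-6649021, minus strand), the higher subunit gene, for Pfkl (chr10:78009758-78010057, minus strand), the lower one, and for Pfkfb4 (chr9:108991652-108991951, plus strand), the member called without the block.
Pfkp: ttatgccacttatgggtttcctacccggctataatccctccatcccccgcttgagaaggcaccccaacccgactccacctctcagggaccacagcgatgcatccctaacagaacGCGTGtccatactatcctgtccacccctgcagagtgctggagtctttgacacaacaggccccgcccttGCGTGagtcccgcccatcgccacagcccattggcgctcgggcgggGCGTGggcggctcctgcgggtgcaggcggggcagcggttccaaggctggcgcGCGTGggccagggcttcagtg
Pfkl: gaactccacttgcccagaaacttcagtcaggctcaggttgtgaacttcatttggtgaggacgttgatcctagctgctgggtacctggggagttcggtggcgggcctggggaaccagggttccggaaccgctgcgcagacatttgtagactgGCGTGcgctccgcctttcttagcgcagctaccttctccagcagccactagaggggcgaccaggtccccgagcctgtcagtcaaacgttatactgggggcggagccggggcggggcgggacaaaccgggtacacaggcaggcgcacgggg
Pfkfb4: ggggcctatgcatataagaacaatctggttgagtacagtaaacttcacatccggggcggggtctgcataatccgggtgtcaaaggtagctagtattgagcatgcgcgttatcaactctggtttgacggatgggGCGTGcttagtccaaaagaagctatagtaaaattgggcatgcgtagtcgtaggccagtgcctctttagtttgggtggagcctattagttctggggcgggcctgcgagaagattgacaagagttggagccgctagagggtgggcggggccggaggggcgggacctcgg
The Pfkp window held 4 such matches, and those of Pfkl and Pfkfb4 held 1 each. The window of Pdha1, a member lower with the block, also held 4, while those of the higher Aldoa and Pkm held 0. Over the 49 windows of the 34 members with a window, GCGTG was in 29 (59.2%), against 32.4% of all 32851 windows. ACGTG, the other common core, was in 22 (44.9%), against 19.6% of all windows. CACGTG, the letters to which MYC and MAX bind, which contain ACGTG, were in 5 (10.2%), against 7.15% of all windows. A match describes letters and not binding, and members of both directions held them.

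Aldolase splits fructose 1,6-bisphosphate, and its main gene was higher while the minor one was lower in IL-10+ cells. Aldoa had 257, 282, 236 and 255 FPKM in IL-10+ libraries, against 217, 243, 194 and 221 FPKM in IL-10- libraries. It was 1.18-fold higher and higher in 4 of 4 numbers, with adjusted p 0.0967 without and 0.00109 with the block, and IL-10+ library 3 was below the highest IL-10- library. Aldoc, the brain-type aldolase gene, had 5.69, 4.25, 1.62 and 2.27 FPKM in IL-10+ libraries, against 9.18, 6.69, 3.22 and 3.73 FPKM in IL-10- libraries. In every number the IL-10+ library was lower, at 0.504 to 0.636 of the IL-10- library, but replicates 1 and 2 were above 3 and 4 in both groups by more than the groups differed. The fold was 0.606, with adjusted p 0.299 without and 0.000248 with the block. Aldolase RNA was nearly all Aldoa, 98.7% ± 0.667 in IL-10+ cells and 97.5% ± 1.14 in IL-10- cells of the sum of both genes. The second identifier named Aldoa, ENSMUSG00000114515, lies just upstream and was near 1 FPKM (1.03 FPKM in IL-10+ cells and 1.32 FPKM in IL-10- cells), with adjusted p 0.414 without and 0.0730 with the block.

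Of the other enzymes of upper glycolysis, Gpi1, glucose 6-phosphate isomerase, had 73.6, 74.8, 64.3 and 69.4 FPKM in IL-10+ libraries, against 84.2, 80.8, 71.5 and 70.8 FPKM in IL-10- libraries. Its fold was 0.918, with adjusted p 0.359 without and 0.0291 with the block and 0.0820 with the block after rescaling, so the call depended on the scaling. Tpi1, triose phosphate isomerase, averaged 151 ± 15.4 FPKM in IL-10+ cells and 161 ± 16.5 FPKM in IL-10- cells, with adjusted p 0.563 without and 0.0543 with the block. It was lower in 4 of 4 numbers (ratios 0.901 to 0.981) and the libraries overlapped.

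**Figure D3:**
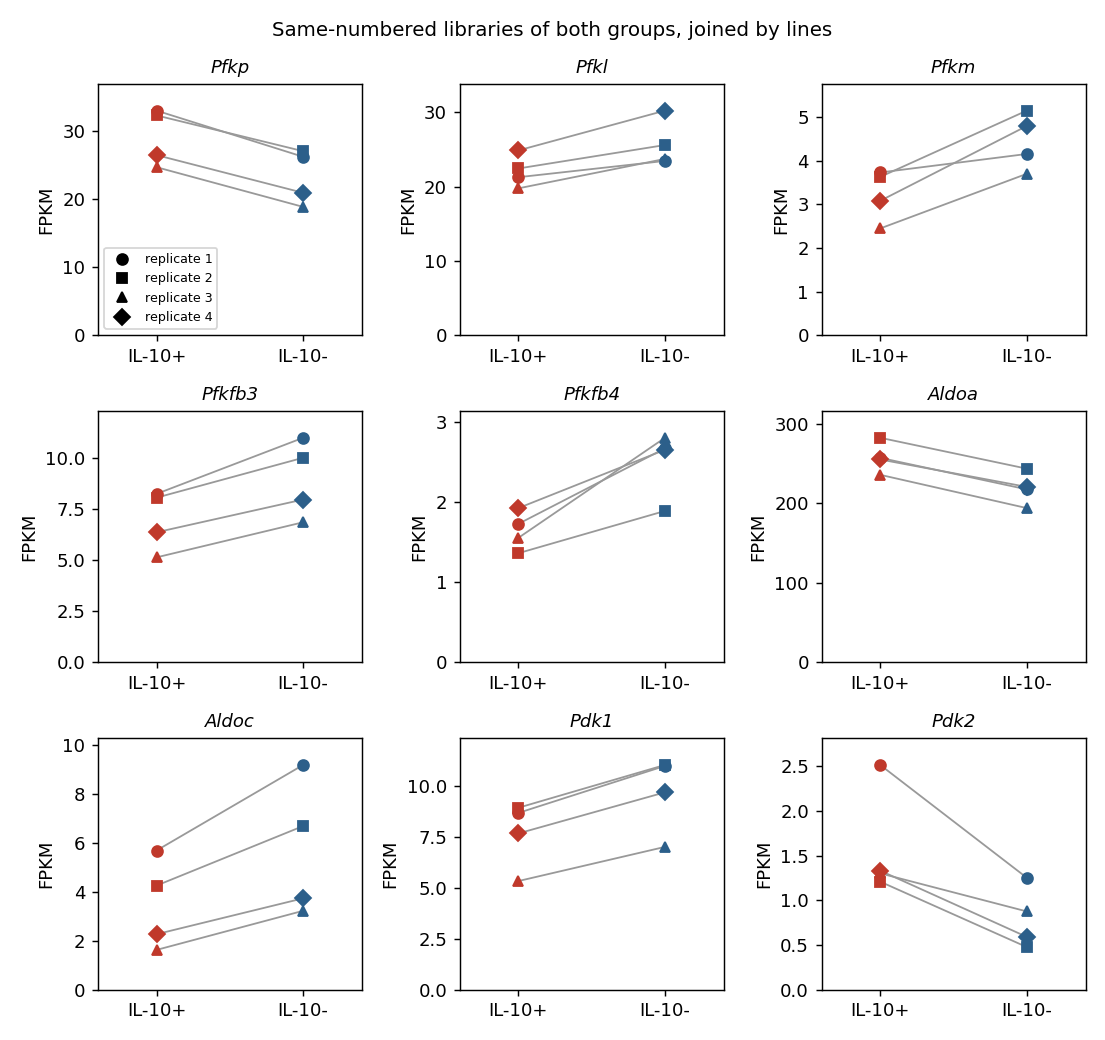
FPKM of 9 members, with the IL-10+ library (red, left) and the IL-10- library (blue, right) of the same replicate number joined by a line, and marker shapes for the replicate numbers. Pfkp, Aldoa and Pdk2 slope down to the right in 4 of 4 numbers, the other 6 slope up in 4 of 4, and the lines are often spread more widely than they slope.

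Lower glycolysis, which turns triose phosphates into pyruvate, held several of the most abundant members, and 3 of its 5 genes were not called in either fit. Gapdh averaged 59.8 ± 6.46 FPKM in IL-10+ cells and 60.3 ± 9.12 FPKM in IL-10- cells, with adjusted p 0.978 without and 0.916 with the block. Pgk1, phosphoglycerate kinase, averaged 334 ± 24.6 FPKM in IL-10+ cells and 330.1 ± 36.2 FPKM in IL-10- cells, with adjusted p 0.896 without and 0.613 with the block. Eno1, enolase, averaged 185 ± 16.9 FPKM in IL-10+ cells and 176 ± 14.004 FPKM in IL-10- cells, with adjusted p 0.622 without and 0.169 with the block. The blocked 95% intervals of the log2 change were -0.12 to 0.11, -0.063 to 0.11 and -0.024 to 0.17 for these 3 genes in this order, which leaves room for small changes in either direction.

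Pgam1, phosphoglycerate mutase, had 160.2, 176, 217 and 242 FPKM in IL-10+ libraries 1 to 4, against 187, 214, 262 and 295 FPKM in IL-10- libraries 1 to 4. Each IL-10+ library was lower than its IL-10- partner (ratios 0.819 to 0.857), but replicates 3 and 4 were above 1 and 2 in both groups, so the groups overlapped. The fold was 0.830, with adjusted p 0.339 without and 0.000659 with the block. Pkm, pyruvate kinase, the last step, had 312, 377, 358 and 373 FPKM in IL-10+ libraries, against 277, 342, 309 and 326 FPKM in IL-10- libraries. It was 1.13-fold higher, with adjusted p 0.217 without and 0.00320 with the block, and library 1 was the lowest in both groups. The table counts Pkm as 1 gene, so its M1 and M2 splice forms were not distinguished here.

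Several of these genes have close copies, and the sources used here do not give how reads shared between copies were counted. The related copy Eno1b was listed at 15.9 to 19.7 FPKM, Pgam1-ps2 at 8.09 to 13.2 FPKM, Pgk1-rs7 at 4.47 to 7.17 FPKM and Ldha-ps2 at 2.09 to 3.15 FPKM, and the 2 named Gapdh pseudogenes in the table at most at 0.280 FPKM. The levels of Gapdh, Pgk1, Pgam1, Eno1 and Ldha are uncertain, and the FPKM of the copies do not bound by how much. Reads dropped as shared would be listed under neither gene. Exons of some members also overlap those of another gene above 1 FPKM, and the strand setting is not given. The largest such overlaps were Fam129c, at a mean of 34.9 FPKM, over 20.6% of the exon bases of Pgls, Gm49759 over 15.3% of Pkm and Ikbkg over 13.6% of G6pdx, and Pitrm1, at a mean of 46.3 FPKM, covered 5.58% of Pfkp.

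Lactate production rested on 1 gene, which was slightly lower in IL-10+ cells. Ldha, the lactate dehydrogenase subunit that favours lactate, had 251, 299.8, 319.7 and 359 FPKM in IL-10+ libraries 1 to 4, against 281, 359, 371 and 408 FPKM in IL-10- libraries 1 to 4. The IL-10+ library was lower in 4 of 4 numbers (ratios 0.834 to 0.891), replicate 1 was the lowest and replicate 4 the highest in both groups, and the groups overlapped. The fold was 0.866, with adjusted p 0.355 without and 0.00242 with the block. Ldhb, the subunit that favours pyruvate, was at or under 0.273 FPKM, so that Ldha made up at least 99.9% of the pair in every library.

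The lactate exporters were not called. Slc16a1, which encodes MCT1, averaged 31.3 ± 7.995 FPKM in IL-10+ cells and 31.8 ± 6.58 FPKM in IL-10- cells, and Slc16a3, which encodes MCT4, averaged 4.57 ± 2.39 FPKM in IL-10+ cells and 3.98 ± 1.96 FPKM in IL-10- cells (mean ± SD, n = 4 each). Slc16a3 ranged most of all tested members between replicate numbers, 4.51-fold between the highest and the lowest, with 6.83, 5.97, 1.44 and 4.05 FPKM in IL-10+ libraries, against 6.04, 4.76, 1.42 and 3.73 FPKM in IL-10- libraries. The IL-10+ library was the higher one in 4 of 4 numbers, with adjusted p 0.860 without and 0.0844 with the block. The unblocked 95% interval of its log2 change was -0.84 to 1.11, and the blocked one -0.00013 to 0.27.

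In the pyruvate dehydrogenase complex the subunits differed in opposite directions and by little. Pdha1, the catalytic alpha subunit on the X chromosome, had 32.6, 35.6, 32.1 and 34.2 FPKM in IL-10+ libraries 1 to 4, against 36.7, 41.7, 35.7 and 37.9 FPKM in IL-10- libraries 1 to 4. It was the 1 member whose groups did not overlap, where 25.2% of all genes tested had no overlap. It was 0.884-fold in IL-10+ cells relative to IL-10- cells, with adjusted p 0.124 without and 0.00361 with the block. Pdhb, the beta subunit, had 37.4, 40.4, 43.6 and 41.8 FPKM in IL-10+ libraries, against 33.5, 38.4, 38.5 and 39.3 FPKM in IL-10- libraries. It was 1.09-fold higher, with adjusted p 0.312 without and 0.0173 with the block, and the blocked p reached 0.0706 when a replicate number was left out. Dlat, the transacetylase, averaged 19.9 FPKM in IL-10+ cells and 20.8 FPKM in IL-10- cells and was not called (adjusted p 0.790 without and 0.298 with the block).

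The PDH kinases, which phosphorylate and inactivate the complex, differed in direction. Pdk1, a kinase gene that hypoxia-inducible factor induces, had 8.67, 8.92, 5.33 and 7.66 FPKM in IL-10+ libraries, against 10.97, 11.02, 7.001 and 9.68 FPKM in IL-10- libraries. It was lower in 4 of 4 numbers, at 0.791-fold, with adjusted p 0.271 without and 0.000655 with the block, and replicate 3 was the lowest in both groups. Pdk2, a widely expressed kinase, had 2.52, 1.21, 1.303 and 1.33 FPKM in IL-10+ libraries, against 1.25, 0.477, 0.876 and 0.591 FPKM in IL-10- libraries. IL-10+ replicate 1 stood far above the other IL-10+ libraries, and IL-10- replicate 1 was also the highest of its group. Pdk2 was 1.99-fold higher, with adjusted p 0.0906 without and 0.00349 with the block, and the blocked call held without replicate 1. Pdk3 was the most abundant kinase gene and was not called, at 20.4 ± 1.27 FPKM in IL-10+ cells and 20.3 ± 1.56 FPKM in IL-10- cells, with adjusted p 0.968 without and 0.885 with the block.

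The pentose phosphate pathway was lower in 2 genes and higher in 1 with the block, and its entry enzyme was not called. G6pdx, glucose 6-phosphate dehydrogenase, the rate-limiting first enzyme, averaged 24.2 ± 4.75 FPKM in IL-10+ cells and 24.3 ± 3.61 FPKM in IL-10- cells, with adjusted p 0.954 without and 0.717 with the block. Pgls, which opens the lactone that G6pdx makes, had 27.8, 25.8, 23.9 and 23.7 FPKM in IL-10+ libraries, against 34.5, 30.2, 27.3 and 27.4 FPKM in IL-10- libraries. Its fold was 0.849, with adjusted p 0.128 without and 0.00218 with the block. Pgd, the second dehydrogenase, averaged 27.9 ± 5.14 FPKM in IL-10+ cells and 30.6 ± 7.06 FPKM in IL-10- cells, with adjusted p 0.700 without and 0.0611 with the block.

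In the non-oxidative branch, which exchanges sugars with glycolysis, Tkt, transketolase, had 53.9, 65.3, 73.7 and 78.5 FPKM in IL-10+ libraries 1 to 4, against 66.03, 79.9, 90.4 and 92.3 FPKM in IL-10- libraries 1 to 4. Every IL-10+ library was lower than its partner (ratios 0.814 to 0.851), at 0.825-fold, with adjusted p 0.226 without and 0.000519 with the block. Rpia, which makes ribose 5-phosphate for nucleotides, had 18.7, 19.5, 24.7 and 25.3 FPKM in IL-10+ libraries, against 16.1, 17.4, 21.6 and 22.95 FPKM in IL-10- libraries. It was 1.13-fold higher and higher in 4 of 4 numbers, with adjusted p 0.452 without and 0.00393 with the block, and replicates 3 and 4 were above 1 and 2 in both groups. Taldo1, transaldolase, averaged 78.1 ± 3.69 FPKM in IL-10+ cells and 80.2 ± 7.56 FPKM in IL-10- cells, with adjusted p 0.816 without and 0.461 with the block.

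The mix of isozymes within a library does not depend on the library's scale, so it was compared as the share of each gene in the summed FPKM of its enzyme. Pfkp made up 56.9, 55.4, 52.7 and 48.7% of phosphofructokinase RNA in IL-10+ libraries 1 to 4, against 48.7, 46.8, 40.8 and 37.4% in IL-10- libraries 1 to 4. It was above its partner by 8.20 to 11.9 percentage points in 4 of 4 numbers, and the groups overlapped only by IL-10+ library 4 and IL-10- library 1. Pfkp held the largest share in all 4 IL-10+ libraries and in IL-10- libraries 1 and 2, while Pfkl did in IL-10- libraries 3 and 4. That order rests on the exon length by which reads are divided, 13401 bases for Pfkp and 6675 bases for Pfkl. In reads Pfkp was above Pfkl in every library, at 7124 to 12126 against 3812 to 6050. The group means were 53.4% ± 3.62 in IL-10+ cells and 43.4% ± 5.25 in IL-10- cells for Pfkp, 40.7% ± 4.02 in IL-10+ cells and 48.3% ± 5.16 in IL-10- cells for Pfkl, and 5.88% ± 0.548 in IL-10+ cells and 8.29% ± 0.540 in IL-10- cells for Pfkm (mean ± SD, n = 4 each). Exact two-sided permutation tests gave p 0.0571 for Pfkp, 0.0857 for Pfkl and 0.0286 for Pfkm, the last being the smallest that 4 against 4 libraries allow.

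The differences in the other shares were smaller than those of Pfkp and Pfkl. Hk2 held 61.05% ± 2.17 in IL-10+ cells and 56.6% ± 2.998 in IL-10- cells, and Slc2a1 held 80.6% ± 1.67 in IL-10+ cells and 77.2% ± 2.07 in IL-10- cells of its pair with Slc2a3. Pdk1 held 25.6% ± 3.99 in IL-10+ cells and 31.3% ± 4.73 in IL-10- cells of PDH kinase RNA, Pdk2 held 5.37% ± 1.98 in IL-10+ cells and 2.64% ± 1.21 in IL-10- cells, and Pdk3 held 68.98% ± 4.96 in IL-10+ cells and 66.1% ± 5.01 in IL-10- cells. In all of these the direction was the same in 4 of 4 replicate numbers. After Benjamini-Hochberg adjustment over the 14 shares compared, 0 passed (1 at an unadjusted p under 0.05, Pfkm, with an adjusted exact p of 0.160). Exchanging libraries only within a replicate number cannot give a p below 0.125, so these shares are descriptions of the 8 libraries.

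**Figure D4:**
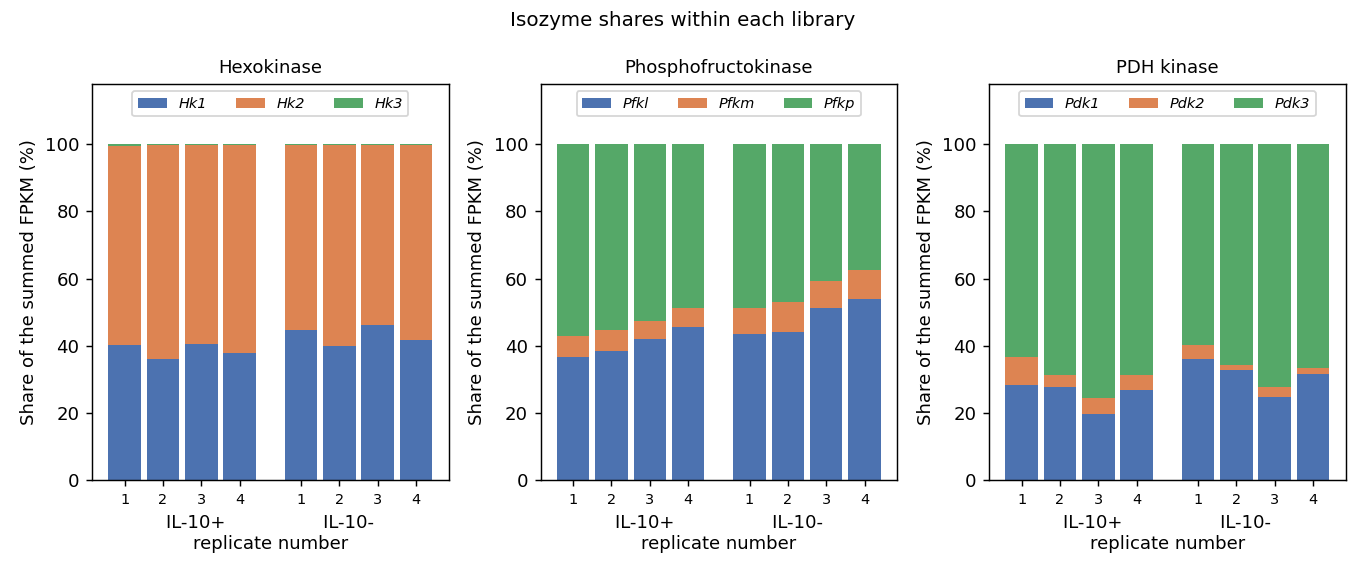
Share of each isozyme gene in the summed FPKM of its enzyme, in percent, stacked for each library, with IL-10+ libraries 1 to 4 left of IL-10- libraries 1 to 4 in each panel. Pfkp (green, middle panel) takes 56.9, 55.4, 52.7 and 48.7% of the IL-10+ bars and 48.7, 46.8, 40.8 and 37.4% of the IL-10- bars, and the hexokinase and PDH kinase bars look more alike.

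Most members varied more between replicate numbers than between the sorted groups. This held for 33 of 34 tested members (71.5% of all genes tested), comparing the ratio of the highest to the lowest number mean with the ratio of the group means. The median of that ratio was 1.37 over the members and 1.28 over all genes tested. The extremes of 4 number means of 2 libraries tend to lie farther apart than 2 group means of 4, so the count of 33 leans high. In both groups replicates 1 and 2 were above 3 and 4 for 5 members, Slc2a3, Gpi1, Pfkfb3, Aldoc and Slc16a3. They were below them for 6 members, Pgam1, Slc16a1, Dlat, G6pdx, Pgd and Rpia. Over all genes tested 22.9% were split in 1 of these ways. Within numbers 9 members were higher in IL-10+ cells in 4 of 4 (24.3% of all genes tested), 16 were lower in 4 of 4 (40.4% of all genes tested), and 9 were mixed. What the numbers stand for is not given, so the source of this spread was not tested.

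Other genes of glucose metabolism, 69 symbols that feed or drain the pathway, included larger differences. Of the 42 tested, 7 were higher and 3 lower without the block (10.6% and 9.18% of all genes), and 13 higher and 10 lower with it (20.4% and 33.3% of all genes), and their median log2 change was 0.0039, against -0.057 over all genes tested. Gfpt1 encodes the first enzyme of the hexosamine pathway, which turns fructose 6-phosphate into the sugar donor for protein glycosylation, and had 16.4, 18.6, 22.05 and 21.2 FPKM in IL-10+ libraries, against 9.93, 9.84, 12.3 and 12.4 FPKM in IL-10- libraries. The groups did not overlap, and it was 1.76-fold higher (log2 change 0.76, SE 0.116, adjusted p 0.00206). Pgm3, which acts later in that pathway, was 1.64-fold higher, at 6.54 FPKM in IL-10+ cells and 3.99 FPKM in IL-10- cells (adjusted p 0.00579). Both calls held whichever library was left out.

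Bpgm, which diverts a glycolytic intermediate to 2,3-bisphosphoglycerate, was 1.80-fold higher, at 7.68 ± 0.536 FPKM in IL-10+ cells and 4.26 ± 0.465 FPKM in IL-10- cells (mean ± SD, n = 4 each, adjusted p 0.00037). Emb, which encodes embigin, a partner protein of lactate transporters, was 1.74-fold higher, at 3.74 FPKM in IL-10+ cells and 2.15 FPKM in IL-10- cells (adjusted p 0.00736). H6pd, the dehydrogenase that makes NADPH inside the endoplasmic reticulum, was 1.43-fold higher, at 4.45 FPKM in IL-10+ cells and 3.12 FPKM in IL-10- cells (adjusted p 0.00229). Gpd2, the mitochondrial glycerol 3-phosphate dehydrogenase that passes glycolytic electrons to the respiratory chain, had 4.22, 4.75, 3.09 and 3.61 FPKM in IL-10+ libraries, against 7.17, 8.11, 6.91 and 7.06 FPKM in IL-10- libraries. Its groups did not overlap, and its fold was 0.536 (log2 change -0.77, SE 0.109, adjusted p 0.00144).

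Pdpr, the regulatory subunit of the PDH phosphatase, was 0.790-fold in IL-10+ cells relative to IL-10- cells (adjusted p 0.0412). Pygb, a glycogen phosphorylase gene, was 0.875-fold (adjusted p 0.0461). Without the block these calls held in 2 of 8 and 1 of 8 cases when a library was left out. With the block the adjusted p was 0.00406 for Pdpr and 0.00284 for Pygb, and both calls held without each replicate number. The remaining 2 genes called without the block, named after their values were seen, were both higher. Bsg, which encodes basigin, the partner of MCT1 and MCT4, averaged 97.5 FPKM in IL-10+ cells and 75.3 FPKM in IL-10- cells (adjusted p 0.0139), and Mpc2, a subunit of the mitochondrial pyruvate carrier, averaged 4.36 FPKM in IL-10+ cells and 3.25 FPKM in IL-10- cells (adjusted p 0.0248). The call of Mpc2 held in 4 of 8 cases when a library was left out, with adjusted p up to 0.0748. With the block the adjusted p of Mpc2 was 0.0035, and that call held without each replicate number. Mpc1, which encodes the other subunit, averaged 2.36 FPKM in IL-10+ cells and 3.22 FPKM in IL-10- cells and was lower in IL-10+ cells in 4 of 4 numbers, with adjusted p 0.148 without and 0.0117 with the block. The most abundant uncalled genes were Galk1, galactokinase, at 66.4 FPKM in IL-10+ cells and 73.96 FPKM in IL-10- cells (adjusted p 0.533), and Pck2, mitochondrial PEP carboxykinase, at 48.1 FPKM in IL-10+ cells and 39.2 FPKM in IL-10- cells (adjusted p 0.635). With the block both were called, Galk1 as lower (0.00386) and Pck2 as higher (0.00416). Slc2a6, a transporter of the GLUT family named after its values were seen, had 11.7, 7.92, 4.10 and 5.39 FPKM in IL-10+ libraries, against 22.9, 15.3, 8.40 and 10.1 FPKM in IL-10- libraries, and its fold of 0.514 came with adjusted p 0.127 without and 7.01e-05 with the block.

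Regulators of glycolysis and targets of hypoxia-inducible factor were listed as 51 symbols. Of the 25 regulators tested, 0 were higher and 3 lower without the block, against 10.6% and 9.18% of all genes. With the block 5 were higher and 9 lower, against 20.4% and 33.3% of all genes, and the median log2 change was -0.0091. Of the 15 hypoxia targets tested, 1 was higher and 0 lower without the block, and 8 were higher and 2 lower with it, with a median log2 change of 0.11. Max, the partner of MYC, had 35.1, 34.6, 37.01 and 40.9 FPKM in IL-10+ libraries, against 44.3, 48.1, 52.1 and 54.5 FPKM in IL-10- libraries, with no overlap, and was 0.742-fold (adjusted p 0.00943). Egln1 and Egln2, the prolyl hydroxylase genes that mark hypoxia-inducible factor for decay, were 0.819-fold and 0.792-fold in IL-10+ cells relative to IL-10- cells (adjusted p 0.0276 and 0.0292). Without the block each call held in 2 of 8 cases when a library was left out. With the block the adjusted p was 0.00272 for Egln1 and 0.0134 for Egln2, and both calls held without each replicate number. Ero1l, an oxidase of the endoplasmic reticulum that hypoxia induces and that forms disulfides in secreted proteins, was 1.47-fold higher, at 23.9 FPKM in IL-10+ cells and 16.3 FPKM in IL-10- cells (adjusted p 0.0367), and the call held in 3 of 8 cases when a library was left out, with adjusted p up to 0.0976.

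The most abundant uncalled regulators were Myc, which activates many glycolytic genes, at 85.5 FPKM in IL-10+ cells and 95.7 FPKM in IL-10- cells (adjusted p 0.581 without and 0.00716 with the block), and Akt1, the kinase that promotes glucose uptake, at 54.8 FPKM in IL-10+ cells and 55.1 FPKM in IL-10- cells (adjusted p 0.978 without and 0.799 with the block). Hif1a, the oxygen-sensitive subunit, averaged 11.1 FPKM in IL-10+ cells and 13.1 FPKM in IL-10- cells (adjusted p 0.122 without and 0.0121 with the block). Among the hypoxia targets outside the pathway, Vegfa, named after its values were seen, had 68.6, 70.8, 19.1 and 24.6 FPKM in IL-10+ libraries, against 28.5, 26.96, 6.06 and 7.32 FPKM in IL-10- libraries. It was 2.66-fold higher in IL-10+ cells, with adjusted p 0.145 without and 9.4e-05 with the block, and the IL-10+ library was the higher one in 4 of 4 numbers.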

How the data were processed

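RNA of the 8 sorted samples was measured by sequencing. The authors deposited FPKM per gene. The submitters' processing notes name HISAT2 2.1.0, HTSeq 0.6.0 and mm10. Which annotation release and strand setting were used, and how shared reads were treated, is not given in the sources here. GENCODE M21 (GRCm38) held 26517 of the 26589 identifiers. In each library 87.5% to 91.7% of values gave whole reads within 0.05, and 1 read in 1 kb is 0.0334 to 0.0365 FPKM. Chi-square per degree of freedom of reads within a group was 9.0 to 82.9, so no library was a near-copy of another of its group. Libraries of different groups were not compared in this way.

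Titles gave the groups. Differences were fitted by limma (version 3.58.1, R version 4.3.3) with a variance trend to log2(FPKM + 1). The fit used 11329 genes, those reaching 1 FPKM in 4 libraries or more, without the replicate number. P-values were adjusted by Benjamini-Hochberg over all of these, with calls under 0.05. Same-numbered libraries had correlated deviations (0.712, 0.583, 0.621 and 0.700, all over the limit of 0.1), so the numbers pair the samples. This pairing rests on the values alone. Results with the replicate block are therefore given too. Isozyme shares had exact two-sided permutation tests (smallest p 0.0286). The fit was tested on simulated data. Where simulated libraries of the same number shared their spread, 31.3% of log2 changes of 0.5 were called without the block and 76.1% with it. False calls there were 0 without the block and 13 with it, among 11329 genes. Alternatives were pseudocounts of 0.1 and 0.5, other filters, rescalings, no variance trend, the block, pairs of numbers and leaving out libraries. The block without each number was added after seeing the data. Members and lists were chosen with earlier results of these data known. Every member is named. Of the other lists, up to 5 called rises, up to 5 called falls (the largest) and the 2 most abundant uncalled genes are named. Bsg, Mpc2, Mpc1, Slc2a6, Pfkfb1, Pfkfb2, Hif1a and Vegfa are named outside this rule.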

Additional observations from a re-analysis of the deposited data

Results flagged for a closer look

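Of 100 groups of 4 libraries examined for the members and their shares, 4 held a library farther from the others than Dixon's 95% limit allows, which chance gives in about 1 of 20 groups. Pfkfb4 was at 1.89 FPKM in IL-10- replicate 2, while the other IL-10- libraries were at 2.66 to 2.81 FPKM. Pdhb was at 33.5 FPKM in IL-10- replicate 1, while the others of that group were at 38.4 to 39.3 FPKM. Pdk2 was at 2.52 FPKM in IL-10+ replicate 1, against 1.21 to 1.33 FPKM in the other IL-10+ libraries. Hk3 made up 0.438% of hexokinase RNA in IL-10+ replicate 1, against 0.103% to 0.145% in the other IL-10+ libraries, which rests on at most 15 Hk3 reads a library.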

How the results depend on the processing

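Without the replicate number 1 member was called. In limma 0 were called without a filter on low values, with 6 at an unadjusted p under 0.05 (19.8% of all genes). With a filter of at least 5 FPKM, which drops Pfkfb4, 0 were called, with 3 unadjusted (35.5% of all genes). After scaling without immunoglobulin and mitochondrial genes 0 were called, with 6 unadjusted (30.7% of all genes). The count was 0 to 1 when a library was left out. With the replicate block 22 were called, and 20 with the block and either rescaling. With the block 17 to 18 were called when a replicate number was left out, a fit added after seeing the data. There 21 to 24 members had an unadjusted p under 0.05, against 53.4% to 54.7% of all genes. Replicates 1 and 2 alone gave 0 (4 unadjusted, against 25.7% of all genes) and replicates 3 and 4 alone 5. Over all genes the count was 2236, and 6083 with the replicate block, 5724 and 5663 with the block after median-of-ratios scaling and after scaling without immunoglobulin and mitochondrial genes, 1106 in replicates 1 and 2, 2647 in replicates 3 and 4, and 1621 to 2055 without 1 library. For other genes of glucose metabolism the count of 10 became 23 with the block under each of the 3 scalings, 4 in replicates 1 and 2, 12 in replicates 3 and 4, and 7 to 10 without 1 library. For regulators and hypoxia targets the count of 4 became 24 with the block, 23 with the block under both rescalings, 2 after scaling without immunoglobulin and mitochondrial genes, 2 in replicates 1 and 2, 5 in replicates 3 and 4, and 1 to 3 without 1 library. The cause of these differences was not tested.

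Some uncalled members changed the sign of their log2 change. Gapdh was at 0.024 after median-of-ratios scaling and 0.028 after scaling without immunoglobulin and mitochondrial genes, with or without the block, and G6pdx at 0.012 and 0.015 in the same settings and 0.048 in replicates 3 and 4. Slc16a1 was at 0.0015 and Taldo1 at 0.00085 after scaling without immunoglobulin and mitochondrial genes, with or without the block, and Slc16a1 was at 0.030 in replicates 3 and 4. Pgk1 was at -0.031 in replicates 1 and 2, and Pdk3 at -0.030 in replicates 3 and 4. Without 1 library the log2 changes ran over -0.11 to 0.066 for Gapdh, -0.035 to 0.091 for Pgk1, -0.15 to 0.12 for Slc16a1, -0.18 to 0.49 for Slc16a3, -0.13 to 0.042 for Dlat, -0.041 to 0.045 for Pdk3, -0.12 to 0.11 for G6pdx and -0.098 to 0.0056 for Taldo1. Over single members and shares, setting by setting, 732 kept direction and call, 63 gained a call, 9 lost the call of Pfkfb4 and 38 changed sign.

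The 95% interval of the log2(FPKM + 1) change lay within 1.5-fold for 24 members without the block and for 32 with it. That scale understates the change of low members, so for these it does not bound the change in FPKM. Low members such as Ldhb, Hk3 and the second Aldoa identifier rest on few reads (0 to 12, 4 to 15 and 12 to 39 a library).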
